A study of Mus musculus with 3 samples.

Results

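The genes described here are Cdkn1a and 9 other well-known targets of the tumor suppressor p53, measured in mouse spleens that carried islet grafts. They were chosen by name, and all non-control probes that the array annotates to Cdkn1a, Mdm2, Ccng1, Trp53inp1, Bbc3, Bax, Phlda3, Eda2r, Sesn2 or Zmat3 were taken. All 10 genes were on the array, with 14 of its 55679 probes. A probe counted as detected when its signal was well above background, as judged by the scanner software, on at least 1 array. By this measure 11 of the 14 probes and 9 of the 10 genes were detected, against 32108 of the 55679 probes and 22851 of the 34796 gene names of the whole array. Eda2r was the gene that was not detected.

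The p53 protein, encoded by Trp53 in the mouse, is a transcription factor that is stabilized when DNA is damaged or cells are otherwise stressed. It binds paired half-sites near its target genes. Some targets halt the cell cycle (Cdkn1a), some restrain p53 itself (Mdm2, Ccng1), some promote cell death (Bbc3, Bax), and others act in metabolism or RNA stability (Sesn2, Zmat3). Many of these genes also have a basal expression that does not need active p53, and Cdkn1a responds to further inputs such as cytokines and differentiation.

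Spleen RNA was measured on 3 arrays, with 1 array for each time point. The recipients were male C57BL/6J mice made diabetic with streptozotocin in the days before they received syngeneic islets, 25 into the spleen and 100 under the capsule of a kidney (SP25+KC100). Sample 1 was spleen taken on day 0, immediately after transplantation. Sample 2 was taken on day 2. Sample 3 was taken on day 139, from mice whose graft-bearing kidney was taken out on day 100. The treatment text gives both grafts for all 3 samples, while the characteristics name the capsular graft in Sample 3 alone. Streptozotocin, a DNA-alkylating agent that destroys beta cells, was thus common to all samples, and the time since its injection, the age of the mice, the time after transplantation and the nephrectomy differed together between Sample 3 and the others and cannot be told apart. How many mice contributed RNA to an array is not stated in the sources used here. There were no replicates, so the ratios below describe these arrays and no test of the time points was possible.

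Each array had 62976 spots, of which 59305 were not controls, and the share of probes well above background ran from 50.4% in Sample 3 to 54.4% in Sample 1. Markers of splenic cells were present in every sample: all 6 B cell genes, 6 T cell genes, 8 macrophage genes and 7 erythroid genes looked at were well above background on all 3 arrays. Of the 8 beta cell genes, Pdx1 and Slc2a2 were not well above background in any sample.

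At day 2 none of the 9 detected genes had moved past a ratio of 1.5 or 0.66 against day 0, whereas at day 139 Cdkn1a, which encodes the cyclin-dependent kinase inhibitor p21, and Phlda3 were lower and Trp53inp1 was higher than at both earlier times. Cdkn1a had 3.58-fold less signal at day 139 than at day 0, Phlda3 had 1.77-fold less, and Trp53inp1 had 2.68-fold more. The other 6 detected genes (Mdm2, Ccng1, Bbc3, Bax, Sesn2 and Zmat3) stayed between the ratio limits in all 3 comparisons. The targets therefore did not share a direction. The median log2 ratio of the 9 genes was 0.10 for Sample 2 over Sample 1, 0.02 for Sample 3 over Sample 1 and 0.02 for Sample 3 over Sample 2. Over all detected probes the medians were 0.01, -0.02 and -0.04.

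Counts over so few genes are read against those of the whole array. In Sample 2 over Sample 1, 10.1% of all detected probes were past the upper and 10.4% past the lower ratio limit (20.5% in all), against 0 of the 9 genes. In Sample 3 over Sample 1, 1 of the 9 genes was higher and 2 were lower, where 12.8% of all detected probes were higher and 14.7% lower. In Sample 3 over Sample 2 the same gene was higher and the same 2 were lower, with 12.4% of all detected probes higher and 14.4% lower. These last comparisons share the Sample 3 array. The stricter criteria also ask for a Z-score of at least 2 or at most -2, that is, a log2 ratio of at least 2 times the SD of the 1000 detected probes nearest in mean signal. Trp53inp1 and Cdkn1a passed both criteria at day 139, in opposite directions. The share of all detected probes that did so was 2.52% higher and 2.21% lower over Sample 1 (4.72% in all), and 2.39% higher and 1.77% lower over Sample 2 (4.16% in all). For Sample 2 over Sample 1 these shares were 1.91% and 2.55% (4.46% in all), and 0 of the 9 genes were among them.

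**Figure D1:**
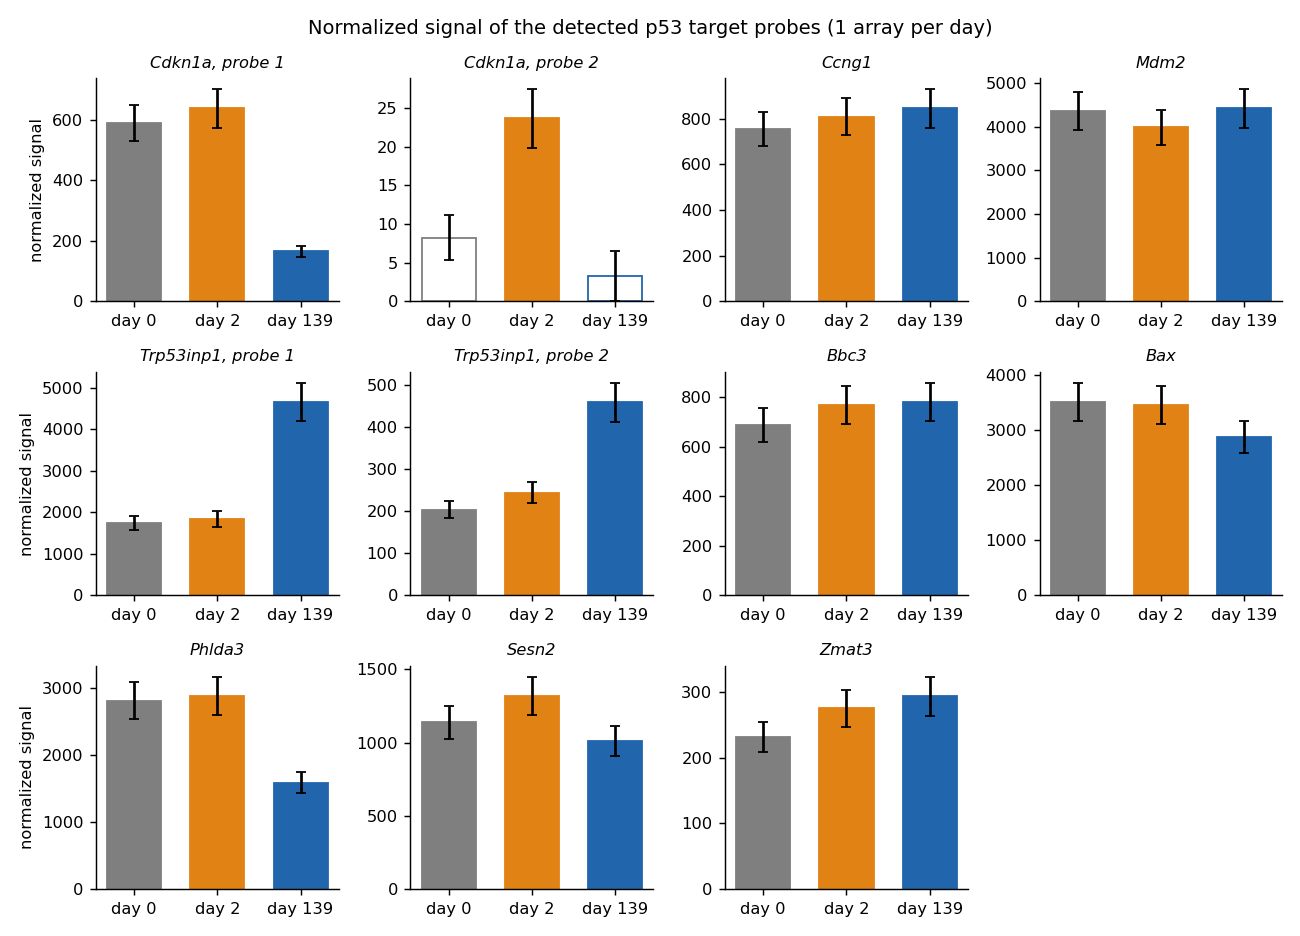
Normalized signal (vertical axes, linear scale from 0, no unit) of the 11 detected probes of the p53 target genes on the arrays of day 0, day 2 and day 139. Bars are 1 array each, error bars are the scanner software's error of the signal on that array, and open bars are signals not well above background; each panel has its own scale and levels cannot be compared between panels. Probe 1 of Cdkn1a stood at 165 on day 139 against 590 and 638 before, and probe 1 of Trp53inp1 at 4654 against 1736 and 1837.

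Cdkn1a was read by 3 probes. The probe with by far the most spots, 10 on each array, matches transcript NM_007669 and lies on the plus strand of chromosome 17 at chr17:29237377-29237436 (mm9 coordinates of the array file). Gene models of mm9 were not used here, so exon positions of probes are not given. Its normalized signal was 590 ± 59.2 at day 0, 638 ± 63.9 at day 2 and 165 ± 17.1 at day 139, where the error is that of the scanner software for a single array and covers neither labeling nor differences between mice. Day 0 and day 2 differed by less than this error, with a ratio of 1.08, while day 139 lay well below both. The ratio over Sample 1 was 0.279, a log2 ratio of -1.84 with a scanner error of 0.21 and a Z-score of -2.87. The ratio over Sample 2 was 0.259, which is 3.87-fold lower, with a Z-score of -2.95. Of all detected probes, 2.49% had a lower ratio than this probe over Sample 1 and 1.58% over Sample 2. Because RNA of the whole spleen was measured, fewer cells that express a gene and less of its RNA per cell cannot be told apart.

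The 10 spots show how repeatable the measurement was within an array. Before normalization, 9 spots of Sample 1 ran from 580 to 640, with a mean of 618 ± 21.6 (SD). In Sample 2, 9 spots ran from 639 to 690, with a mean of 667 ± 17.4, and in Sample 3 all 10 ran from 132 to 162, with a mean of 148 ± 9.15. The software marked 1 spot of Sample 1 (544) and 1 spot of Sample 2 (478) as outliers, and these were left out. Even so, no spot of Sample 3 came near any spot of the other arrays, outliers included. Without any normalization between arrays the ratios were 0.239 and 0.222. Among the 304 detected probes that had at least 10 spots, 10 had a lower ratio over Sample 1 than Cdkn1a. Spots of an array share one labeled RNA and are not replicates of the time point.

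**Figure D2:**
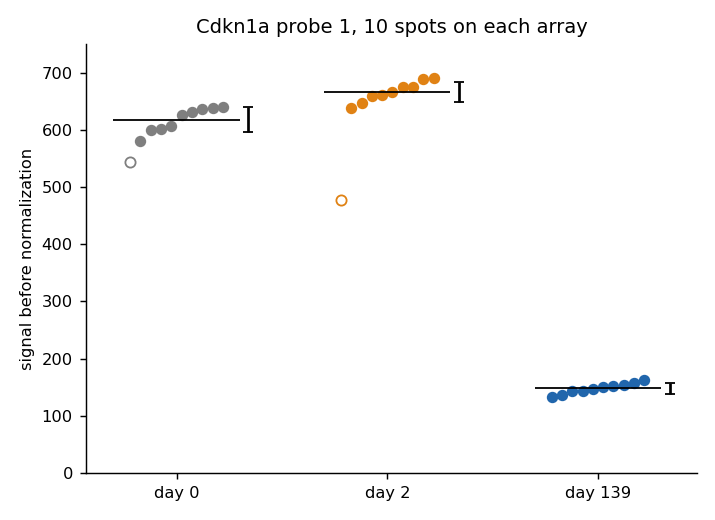
Signal before normalization (vertical axis, linear scale from 0, no unit) of each of the 10 spots of Cdkn1a probe 1 on the arrays of day 0, day 2 and day 139. Filled points are spots used, open points are spots the software marked as outliers, and horizontal lines with bars are the mean and SD of the spots used; the 10 spots of day 139 lie between 132 and 162, and all spots of the other arrays lie at 478 or higher.

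The second probe of Cdkn1a matches the transcript variant NM_001111099 (chr17:29227986-29228045, plus strand). Its signals were 8.24 at day 0, 23.6 at day 2 and 3.23 at day 139, and only that of Sample 2 was well above background. Against the higher of the probe's own signal and the lowest signal well above background on the dimmer array, it was at least 1.83-fold higher in Sample 2 than in Sample 1 and at least 1.30-fold higher than in Sample 3. This probe sits on a single spot near the detection limit, and its error in Sample 2 was 3.80. The third probe, named for an Ensembl transcript (chr17:29235299-29235358), stayed at background on all 3 arrays. Thus the variant probe was measurable at day 2 alone, a time at which the ratio of the 10-spot probe over day 0 was 1.08.

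RefSeq windows of 250 bases before the transcription start (GRCm38.p6) were at hand for 8 of the 10 genes, with 11 starts. They were searched for the p53 half-site, a pattern of 10 bases that reads the same on both strands. The half-site occurred in 4 of the 11 windows, which belong to 4 of the 8 genes (Cdkn1a, Ccng1, Mdm2 and Bax), and in 7.13% of the 32851 windows of all genes. A stricter search, added after the windows had been seen, asked for 2 half-sites side by side, 20 bases with at most 1 mismatch. It matched in the first window of Cdkn1a and in that of Ccng1, and in 0.0761% of all windows. The sequences below are those of Cdkn1a, whose 2 starts differ in this respect, of Ccng1, which holds the same kind of element, and of Phlda3, which was also lower at day 139 and in whose window neither pattern was found. Each is written 5′ to 3′ along the strand of the gene, and capitals mark half-sites and side-by-side pairs. The windows are chr17:29090729-29090978 and chr17:29093519-29093768 (plus strand) for Cdkn1a, chr11:40755287-40755536 (minus strand) for Ccng1 and chr1:135765835-135766084 (plus strand) for Phlda3.
Cdkn1a, start 1: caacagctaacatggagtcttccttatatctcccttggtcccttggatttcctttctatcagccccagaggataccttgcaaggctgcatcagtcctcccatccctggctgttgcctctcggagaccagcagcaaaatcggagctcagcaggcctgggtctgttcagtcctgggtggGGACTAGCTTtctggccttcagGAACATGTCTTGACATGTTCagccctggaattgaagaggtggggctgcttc
Cdkn1a, start 2: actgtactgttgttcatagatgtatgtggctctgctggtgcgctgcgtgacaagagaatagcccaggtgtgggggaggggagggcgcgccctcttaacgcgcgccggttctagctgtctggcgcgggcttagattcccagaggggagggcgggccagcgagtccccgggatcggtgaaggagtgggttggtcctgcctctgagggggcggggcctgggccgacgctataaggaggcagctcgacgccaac
Ccng1: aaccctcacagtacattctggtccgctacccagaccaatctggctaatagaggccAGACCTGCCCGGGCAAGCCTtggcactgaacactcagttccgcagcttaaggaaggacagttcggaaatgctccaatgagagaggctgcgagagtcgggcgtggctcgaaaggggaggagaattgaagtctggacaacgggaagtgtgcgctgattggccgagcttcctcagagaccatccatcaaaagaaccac
Phlda3: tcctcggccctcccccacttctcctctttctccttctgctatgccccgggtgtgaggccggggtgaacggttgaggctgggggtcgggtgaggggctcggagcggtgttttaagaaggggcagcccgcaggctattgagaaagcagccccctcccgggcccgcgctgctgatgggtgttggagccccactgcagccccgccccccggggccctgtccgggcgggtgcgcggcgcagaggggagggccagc

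In the first Cdkn1a window a lone half-site starts 73 bases before the transcription start and the pair starts 51 bases before it, with 1 mismatch to the pattern. The second window had neither and was richer in G and C, at 64.8% against 54.0%. In Ccng1 the pair starts 195 bases before the start, also with 1 mismatch. The window of Phlda3 had a GC content of 71.2%. A match is a description of letters, and Cdkn1a and Ccng1, which share it, differed in their values, as follows.

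Of the targets that feed back on p53, Mdm2 encodes the ubiquitin ligase that marks p53 for degradation. Its probe (NM_010786, chr10:117126010-117126069, minus strand) gave 4364 at day 0, 3988 at day 2 and 4420 at day 139. The 3 signals lay within the scanner error of each other, with ratios of 0.914, 1.01 and 1.11 for Sample 2 over Sample 1, Sample 3 over Sample 1 and Sample 3 over Sample 2. Ccng1 encodes cyclin G1, which acts on Mdm2 through a protein phosphatase. Its signals (NM_009831, chr11:40562427-40562486, minus strand) were 756, 810 and 846 in Samples 1, 2 and 3. The ratios were 1.07, 1.12 and 1.04, within the scanner error with quantile normalization. With spike-in scaling the log2 ratios of Sample 3 over Sample 1 and over Sample 2 were 0.40 and 0.52 for Mdm2 and 0.55 and 0.50 for Ccng1, above the scanner error of 0.20 but inside the ratio limits. Cdkn1a, by contrast, was lower at day 139 with either scaling.

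The death-associated targets went in different directions. Trp53inp1 encodes a stress-induced nuclear protein that assists p53 and takes part in autophagy, and it was read by 2 probes on the plus strand of chromosome 4 (NM_021897). Its first probe (chr4:11101174-11101233) gave 1736 at day 0, 1837 at day 2 and 4654 at day 139, and only the last stands apart. The ratio was 2.68 over Sample 1 (log2 ratio 1.42, scanner error 0.20, Z-score 2.37) and 2.53 over Sample 2 (Z-score 2.18). The second probe (chr4:11092530-11092589) gave 204, 244 and 460. It was higher at day 139 as well, with ratios of 2.26 and 1.88, but its Z-scores of 1.76 and 1.38 did not reach the limit.

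Phlda3 encodes a small pleckstrin-homology protein that restrains the kinase Akt. Its probe (NM_013750, chr1:137665642-137665701, plus strand) gave 2808 at day 0, 2878 at day 2 and 1583 at day 139. Day 0 and day 2 were alike within the scanner error, with a ratio of 1.03, and day 139 was lower. The ratio was 0.564 over Sample 1 and 0.550 over Sample 2, past the ratio limit with Z-scores of -1.42 and -1.51. With arrays scaled to the spike-in controls these ratios became 0.740 and 0.732, inside the limit.

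Bbc3 and Bax, the Bcl2 family members most closely tied to p53, were between the limits. Bbc3, which encodes the BH3-only protein Puma, had signals of 686, 767 and 780 (NM_133234, chr7:16903403-16903462, plus strand). Its ratios of 1.12, 1.14 and 1.02 were within the scanner error, and with spike-in scaling those of Sample 3 became 1.49 over Sample 1 and 1.38 over Sample 2. Bax, which encodes a pore-forming executor of mitochondrial death, had signals of 3502, 3454 and 2865 (NM_007527, chr7:52717122-52717181, minus strand). Day 139 was the lowest of the 3, with ratios of 0.818 and 0.830, but with spike-in scaling the ratios were 1.08 and 1.09. The 2 probes of Eda2r, which encodes a receptor for ectodysplasin A2 (chrX:94531320-94531379 and chrX:94534281-94534340, minus strand), were not well above background in any sample, so no ratio is given.

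Sesn2 encodes a sestrin, which dampens mTORC1 signaling under stress. Its signals were 1138, 1319 and 1011 (NM_144907, chr4:132048858-132048917, minus strand), highest at day 2. The ratio of Sample 3 over Sample 2 was 0.767, with a log2 ratio of -0.38, and spike-in scaling turned it to 1.02. Zmat3 encodes a zinc finger protein that binds RNA and affects transcript stability and splicing. Its signals were 232, 275 and 294 (NM_009517, chr3:32233831-32233890, minus strand). The ratio over day 0 was 1.19 at day 2 and 1.27 at day 139, and the latter became 1.66 with spike-in scaling.

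**Figure D3:**
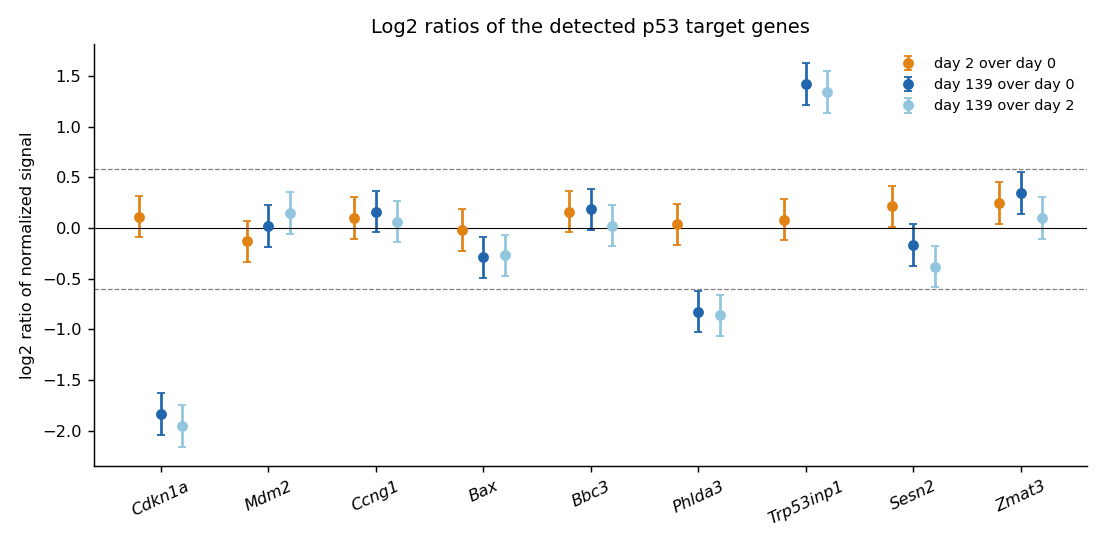
Log2 ratio of normalized signal (vertical axis) of the 9 detected genes, 1 probe each (the brightest), for day 2 over day 0, day 139 over day 0 and day 139 over day 2. Bars are the scanner software's error of the log2 ratio, dashed lines are ratios of 1.5 and 0.66, and both comparisons with day 139 share that array; Cdkn1a at -1.84 and -1.95, Phlda3 at -0.83 and -0.86 and Trp53inp1 at 1.42 and 1.34 lie outside the lines.

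A list of 39 other known p53 targets showed the same mixture. In Sample 3 over Sample 1, 5 were higher and 7 lower past the ratio limits and 27 lay between, so that 30.8% were past a limit, against 27.5% of all detected probes. Their median log2 ratio was -0.08, and spike-in scaling, which lifted the median of all detected probes from -0.02 to 0.34, made it 0.29 with 14 higher and 3 lower. In Sample 3 over Sample 2, 6 were higher and 9 lower, 38.5% in all against 26.7% of all detected probes, with a median of -0.05 that became 0.36. In Sample 2 over Sample 1, 4 were higher and 3 lower, 17.9% in all against 20.5% of all detected probes, and the median was -0.03. Cdkn1a, at a log2 ratio of -1.84 over Sample 1, lay far below the median of the list.

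Some of these targets had changes of the size of that of Cdkn1a. Gdf15, which encodes a stress-induced circulating factor of the TGF-beta family, had signals of 597, 511 and 161 in Samples 1, 2 and 3. It was 3.71-fold lower in Sample 3 than in Sample 1 (Z-score -2.91) and 3.18-fold lower than in Sample 2 (Z-score -2.42). Ddit4, an inhibitor of mTORC1 that also responds to hypoxia and glucocorticoids, had signals of 23089, 24845 and 9235, which is 2.50-fold and 2.69-fold lower in Sample 3. Both genes, like Cdkn1a, stood at a similar signal on days 0 and 2 and lower on day 139, also with spike-in scaling. Steap3, an iron reductase of erythroid cells, had 1034, 1343 and 541, with a ratio of 0.403 over Sample 2 (Z-score -2.27) and 0.523 over Sample 1. Its other probe was highest at day 2, with 362, 729 and 274, and had ratios of 0.376 over Sample 2 and 0.757 over Sample 1. Gls2, a mitochondrial glutaminase, had 82.6, 168 and 65.7, highest at day 2.

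Other targets were higher at day 139. Rrm2b, a subunit of ribonucleotide reductase, had low signals of 28.9, 17.1 and 73.0, and its ratio over Sample 2 was 4.27 (Z-score 2.56). Perp, a membrane protein of the apoptosis group, had 32.5, 57.4 and 80.7, a ratio of 2.48 over Sample 1. Ephx1, a detoxifying epoxide hydrolase, had 3341, 3881 and 6083, a ratio of 1.82 over Sample 1. None of the 39 was higher past both criteria in Sample 3 over Sample 1, against 2.52% of all detected probes. Lower past both were 2, Gdf15 and Ddit4, against 2.21%. Over Sample 2, Rrm2b alone was higher past both criteria, against 2.39%. There 4 were lower (Ddit4, Gdf15, Steap3 and Gls2), against 1.77%.

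In the arrest group, Plk3, a polo-like kinase, was lower at both later times, with 789, 394 and 374 and a ratio of 0.499 at day 2 (Z-score -1.95). Sfn, which encodes 14-3-3 sigma, had 96.8, 129 and 163, and Rprm passed the ratio limit at day 2 with a signal well above background in that sample alone. In the death group, Aen, a p53-induced nuclease, was also highest at day 0, with 6923, 3977 and 4056. Pidd1, the scaffold of a caspase-2 complex, had 665, 774 and 434, and Tnfrsf10b, a death receptor, had 141, 191 and 108, both lowest at day 139. Pmaip1, which encodes the BH3-only protein Noxa, had 1480, 1177 and 1914, Fas had 512, 453 and 689 and the autophagy gene Dram1 had 158, 123 and 195, all 3 lowest at day 2. In the feedback group, Trp73, a relative of p53, had 77.3, 66.3 and 117. Ak1, an adenylate kinase, passed both criteria at day 2, with 862, 2116 and 1202 and a ratio of 2.46 (Z-score 2.73).

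Of p53 itself and its regulators, Trp53 had signals of 238, 288 and 191 in Samples 1, 2 and 3, with ratios of 1.21, 0.802 and 0.664. Mdm4, which binds and restrains p53, had 743, 804 and 578, with ratios of 1.08, 0.778 and 0.719. Both were lowest at day 139, and with spike-in scaling their log2 ratios over day 0 were 0.06 and 0.02. The kinases Hipk2 (568, 622 and 369) and Chek2 (108, 79.8 and 68.7) were past the lower limit over Sample 1, at 0.649 and 0.639. With spike-in scaling (log2 ratios of -0.24 for Hipk2 and -0.28 for Chek2) or with a normexp correction (-0.60 and -0.44) neither was past it. These values are of the brightest probe of each gene. A second probe of Hipk2 had 288, 222 and 153, with a lower ratio of 0.531 over Sample 1. Chek1 was not well above background.

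Among the other CDK inhibitors, Cdkn2a stood apart. This locus encodes p16Ink4a and, in an alternative frame, p19Arf, which blocks Mdm2. The detected probe (NM_009877, chr4:88920405-88920464, minus strand) gave 44.9 at day 0, 66.3 at day 2 and 368 at day 139. Its ratio was 8.20 over Sample 1 (Z-score 5.09) and 5.55 over Sample 2 (Z-score 3.94), so this inhibitor was higher on the array on which Cdkn1a was lower. Its second probe stayed at background. The neighboring Cdkn2b, which encodes p15Ink4b, had 36.9, 40.6 and 125, with ratios of 3.39 and 3.09 (Z-scores 2.34 and 2.28), and again a second probe that was not well above background. Cdkn1b, which encodes p27, had 3339, 3763 and 5327, with a ratio of 1.60 over Sample 1, and its other probe had 106, 119 and 132, a ratio of 1.25. In all, 3 of the 6 other inhibitors were past the upper limit over Sample 1, against 12.8% of all detected probes, and 0 were past the lower, against 14.7%. Of 9 detected Bcl2 family genes, 1 was past the lower limit over Sample 1, against 14.7% of all detected probes. It was the BH3-only gene Bik (79.5, 55.4 and 31.2). At day 2, 1 was past the upper limit over day 0, Bad (2348, 3893 and 2946), against 10.1% of all detected probes. The other probe of Bad had 114, 127 and 112, a ratio of 1.11 at day 2.

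**Figure D4:**
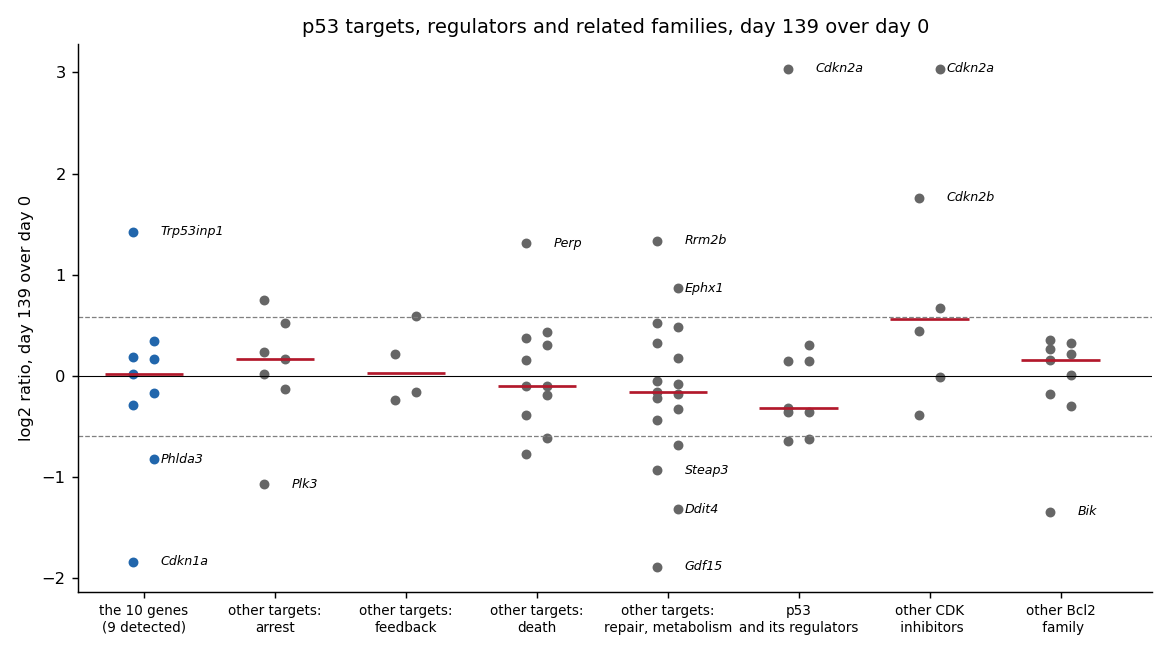
Log2 ratio of day 139 over day 0 (vertical axis) for the 9 detected genes described here (blue) and for the other p53 targets by role, p53 and its regulators, the other CDK inhibitors and the other Bcl2 family genes (grey). Each point is a gene through its brightest detected probe, red lines are medians, dashed lines are ratios of 1.5 and 0.66, genes beyond 0.8 in either direction are named, and Cdkn2a and Bid belong to 2 lists; Cdkn1a at -1.84 and Gdf15 at -1.89 are the lowest points and Cdkn2a at 3.04 the highest.

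Cell type markers and cell cycle genes moved along with the day 139 values. The 6 B cell genes were all higher in Sample 3 than in either other sample, and their median over Sample 2 was 1.16 on the log2 scale. Their summed normalized signals were 33062, 33241 and 70746 in Samples 1, 2 and 3. The 6 T cell genes were all higher too, with a median of 0.90 over Sample 1 and sums of 12256, 16510 and 22664. The 17 cell cycle genes, such as Mki67 and Top2a, all had lower values at day 139 than at day 0 (median -0.63), although Aurkb was not well above background on either of these arrays and Ccne2 was not at day 139, with sums of 92903, 104609 and 55101. Cdkn1a was low on the same array, and a relation between the cell cycle genes and Cdkn1a was not tested. The 7 erythroid genes had a median of -0.53 over Sample 1 with sums of 430656, 473539 and 407596, and the 3 spleen mesenchyme genes a median of -0.42 with sums of 3227, 2904 and 1856. Hbb-b1 alone gave 336977, 360704 and 336977 of the erythroid sums, which therefore say little about the other erythroid genes. With spike-in scaling the medians of the cell cycle, erythroid and mesenchyme genes over Sample 1 were -0.23, -0.12 and -0.03, and those of the B and T cell genes 1.53 and 1.26.

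The 8 macrophage genes had a median of -0.15 over Sample 1, with sums of 124543, 97684 and 106225, and the 9 neutrophil genes one of 0.04, with sums of 252209, 115073 and 121995. S100a8 and S100a9 gave most of the neutrophil sums, S100a9 with 147009, 51357 and 58589. The 8 acute inflammation genes, Il6 among them, all had lower values at day 2 than at day 0 (median -2.29), with Ptgs2 at background there. At day 139, 7 had lower values than at day 0 (median -3.65), with Cxcl1, Cxcl2 and Ptgs2 at background there. The sums were 14586, 3595 and 4098. Of the graft markers, the 6 detected beta cell genes had sums of 62277, 97309 and 32896 and a median of -0.53 over Sample 1. Nkx6-1 was not well above background at day 139 and Slc30a8 was not at day 0, so this median rests in part on a background value. The 6 other islet endocrine genes had sums of 2211, 10970 and 1127 and a median of -1.11, with Ppy and Pcsk1 not well above background at day 139. Of the 5 exocrine genes, 4 (Prss2, Cpa1, Cpb1 and Pnlip) were well above background at day 139 alone, with signals of 47.7, 63.6, 60.1 and 29.0 there. The other, Amy2a5, was well above background on all 3 arrays, with 21.3, 43.4 and 404 (Z-score 5.69 over Sample 1). The summed signals of the list were 40.1 and 82.2 at days 0 and 2 against 605 at day 139. They rest in part on background values before day 139. The part of these cells and programs in the values of Cdkn1a, Phlda3 and Trp53inp1 was not tested.

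The genes whose 3 log2 signals, centered on their mean, lay nearest to those of Cdkn1a among 22850 other detected names were mostly dim. Of the 5 nearest, only D2Ertd295e was well above background on all 3 arrays, with signals of 74.6, 77.5 and 21.5 and a Euclidean distance of 0.07 on the log2 scale. The nearest named protein-coding gene with that property was Prg4, which encodes the lubricant proteoglycan lubricin and was picked after its values were seen. It had 906 at day 0, 906 at day 2 and 250 at day 139, at a distance of 0.09. With 3 arrays, many genes can share such a profile.

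The choice of scaling set how far the other genes moved, but not the direction of the 3 genes outside the limits. For Sample 3 over Sample 1, the log2 ratio of Cdkn1a ran from -1.85 to -1.47 over the alternatives, that of Phlda3 from -0.89 to -0.43 and that of Trp53inp1 from 1.30 to 1.79. Spike-in scaling gave the upper end for all 3. Under it Zmat3 took the place of Phlda3 among the genes past a ratio limit over Sample 1, which left Trp53inp1 and Zmat3 higher and Cdkn1a lower. The share of higher probes among all those past a ratio limit was 46.5% with quantile normalization and 79.5% with spike-in scaling for Sample 3 over Sample 1, and 46.3% and 84.3% for Sample 3 over Sample 2.

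**Figure D5:**
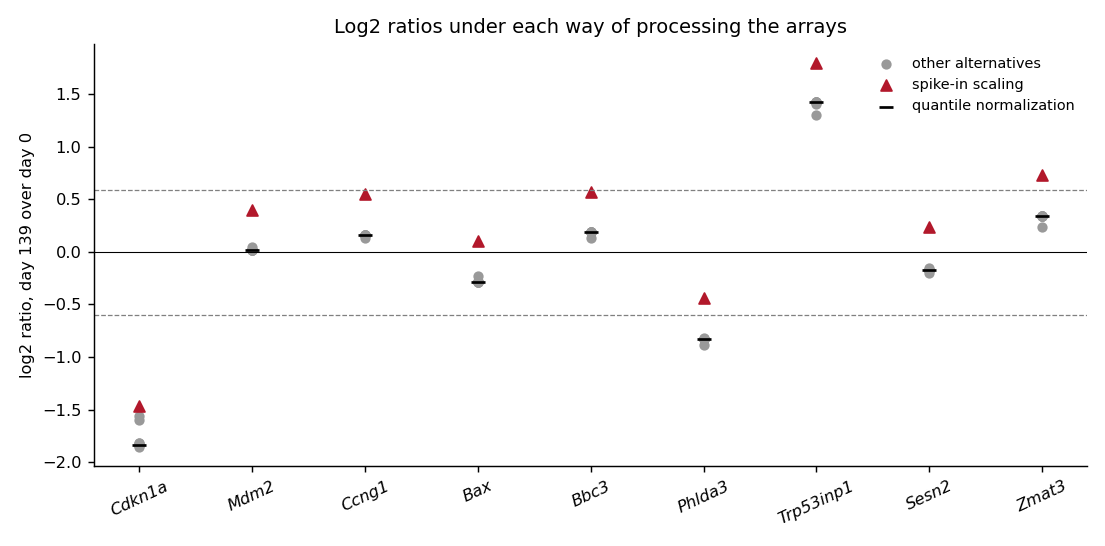
Log2 ratio of day 139 over day 0 (vertical axis) of the 9 detected genes with quantile normalization (black bars), with spike-in scaling (red triangles) and with the other alternatives (grey points), with dashed lines at ratios of 1.5 and 0.66. Spike-in scaling lies above the other values for each gene, and Bax and Sesn2 lie on opposite sides of 0 with it and without it, while Cdkn1a stays at -1.47 or below and Trp53inp1 at 1.30 or above.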

How the data were processed

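RNA of islet graft-bearing spleens was hybridized by the authors to one-color SurePrint G3 Mouse 8x60K arrays (Cy3), 1 for each of the 3 samples. The deposited scanner files give a linear intensity for each spot, from which the background had been subtracted by Feature Extraction (version 10.7.1.1 in the file headers, 9.5.1.1 per the labels). The labels and the methods name different RNA and labeling kits, which was not settled. The authors also deposited a table of quantile-normalized intensity values, which was used as an alternative and whose largest log2 difference from the values here was 0.054 over the detected probes of the 10 genes.

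Control spots and spots marked as outliers were left out, the mean of a probe's spots was taken, and quantile normalization was applied to the 55679 probes of the 3 arrays. Values under 1 were set to 1 before log2 was taken. A gene is given by its brightest detected probe. The ratio limits of 1.5 and 0.66 and the Z-score limits of 2 and -2 follow the authors' criteria. The methods do not say how their Z-score was computed, so calls made here need not match theirs. Here the Z-score is the log2 ratio in units of the SD of the 1000 detected probes nearest in mean signal. No p-value was computed. The number of arrays limits the precision, and the errors given are those of the scanner software. Calculations used Python 3.11.15, numpy 2.4.6, pandas 2.3.3, matplotlib 3.10.9 and, for normexp (offset 50), R 4.3.3 with limma 3.58.1.

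Gene names are those of the array; 3 of the 146 list genes were matched through a synonym. All 10 genes are described with every probe. Of the lists of p53 targets, p53 regulators, CDK inhibitors and Bcl2 family genes, those past a ratio limit with both signals well above background are named, at most the 5 with the largest change per list and comparison, with Trp53 and Mdm4. The genes and lists, written from general knowledge, were chosen with earlier results of these data known. Promoter windows are from RefSeq (GRCm38.p6). The alternatives were 75th percentile or spike-in scaling, a normexp correction, the deposited values, outlier-marked spots kept, no detection filter, a floor equal to the dimmest signal called well above background, detection required on every array, the median over the probes of a gene, a ratio limit of 2 or 0.5, and a Z-score from the SD of all probes or from the median absolute deviation.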

Additional observations from a re-analysis of the deposited data

How the results depend on the processing

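No paired analysis was possible because each time point has 1 array. The counts of genes past the limits were within 1.5 times the reported ones in 61 recalculations and further off in 5. With the median over the probes of a gene, 1 gene (Cdkn1a, through its dim variant probe) was past a ratio limit in Sample 2 over Sample 1 in place of 0, and 1 gene in place of 2 passed both criteria in Sample 3 over Sample 1 (Trp53inp1) and in Sample 3 over Sample 2 (Cdkn1a). With a Z-score from the SD of all probes, 1 gene in place of 2, Cdkn1a, passed both criteria in each of these comparisons, and with the median absolute deviation Phlda3 passed as well. Of the recalculated log2 ratios of single genes, 219 stayed within the scanner error of the reported value and 24 moved further. Many of the 219 could not have moved. The raised floor and the changed detection rules leave the brightest probe of each of the 9 genes as it was. The median over probes does the same for genes with 1 probe. No ratio past a limit changed its sign. Under spike-in scaling the Sample 3 signals of all 9 genes stood higher relative to the other samples, since the spike-in controls had a median signal of 2448 there against 3718 in Sample 1 and 3953 in Sample 2. The cause was not tested. Signals near the lowest one well above background (12.9 in Sample 1 and 18.2 in Sample 3), such as those of the Cdkn1a variant probe, carry little precision.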
